A study of Mus musculus with 34 samples.

Results

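Gckr, Khk, Gys2, Pc and Gcgr encode proteins that stand at separate control points of sugar handling in the liver. They were found by gene symbol in the probe annotation, 5 of 1019 named genes among 1856 measured features, and each was read by 1 spot. The genes were chosen with their heat differences in these same arrays already known, so those differences are given here as a description, without a test. The symbols are those of the annotation of a rat oligonucleotide design, in which Pc stands for the gene that mouse RefSeq calls Pcx.

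Hepatocytes take up glucose and fructose from portal blood, trap them by phosphorylation, and store, burn or release the carbon according to feeding state and hormones. Glucokinase traps glucose and is held inactive by its regulatory protein, the product of Gckr, while ketohexokinase (Khk) traps fructose. Liver glycogen synthase (Gys2) stores glucose as glycogen, pyruvate carboxylase (Pc) makes the oxaloacetate from which gluconeogenesis starts, and the glucagon receptor (Gcgr) carries the fasting signal for glycogen breakdown and glucose output.

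The study asked how chronic heat stress changes liver gene expression in mice. Liver RNA of 13 mice was hybridised on 34 in-house spotted arrays, always against universal mouse reference RNA labelled with the opposite dye, and the mouse was the replicate. The thermoneutral group (TN) held 7 mice on 20 arrays, fed endophyte-free fescue diet (E-), and the heat-stressed group (HS) held 6 mice on 14 arrays, under chronic heat for 2 weeks. The labels give 34 °C on 8 HS arrays, a start at 27 days of age on 7 and an end at 40 days on 5, and name the ICR strain on 2. For TN mice the strain, age and temperature, for HS mice the diet, and for all arrays the batch were not found in these sources, so that diet, age and batch cannot be told apart from heat. The identifiers begin with F or M, and the sources used here do not say what the letter stands for. Where labels give a sex, F222 is called female, M233 male and M242 female.

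A mouse had 1 to 4 arrays, and mouse F203 had 1, with its RNA in Cy3. On the arrays with mouse RNA in Cy5, 14 to 18 of 18 measured hepatocyte genes lay above the array median, against 1 to 4 of 18 on the Cy3 arrays before their sign was turned. The arrays with dyes exchanged therefore ran opposite, as labelled. Values below are log2 ratios of liver over reference, with every array's median set to 0 and a common dye term for each spot removed before arrays of a mouse were averaged. A pair of arrays stood apart by their spread over all spots: the median absolute deviation was 2.46 on the Cy5 array of TN mouse M244 and 1.91 on the Cy3 array of HS mouse F241, against 0.62 to 1.38 on the others. The oligonucleotides were designed on rat sequence, and how far mismatches lowered their signal was not tested.

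The 18 hepatocyte genes averaged 1.89 to 2.58 in the TN mice and 1.83 to 2.50 in the HS mice, ranges that overlapped. Of the other cell types checked, 3 Kupffer cell and macrophage genes averaged −1.07 to 0.11 in TN and −0.45 to 0.19 in HS, and 2 stellate cell and matrix genes −4.34 to −2.16 and −4.35 to −2.64. The ratio of Hba-a1, a red blood cell gene, ran from 0.15 to 1.79 in TN and from 0.47 to 2.67 in HS, where the highest mouse was F203 (2.67) and F241 stood at 1.72. All 3 Kupffer cell and macrophage genes had positive HS minus TN differences, 0.06 to 0.36, and F203 had their highest mean among HS mice (0.19). The 2 stellate cell and matrix genes had negative differences, −0.47 for Vim and −0.26 for Sparc, with means of −3.60 in F203 and −3.885 in F241. Of the 18 hepatocyte genes, 8 had a positive difference, and the median was −0.08. Krt8, the 1 gene of the bile duct list that was measured, had a difference of 0.16. It stood at 0.27 in F203 and 0.35 in F241, within the TN range of −0.59 to 0.42. Alone it does not measure bile duct content. Prss1, a pancreas gene, had a difference of 0.26, with 0.49 in F203 and 0.74 in F241, against −0.20 to 0.64 in TN. No lymphocyte or endothelial marker of the lists was measured (0 in each). The part of cell composition in the values below was not tested, and in whole liver fewer cells of a type and less RNA per cell cannot be told apart.

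The RefSeq windows before the start of these genes show what the table holds upstream of them. Entries were found for 4 of the 5 genes, counting Pcx for Pc. Gckr and Khk lie on the same chromosome with 20 protein-coding genes between them, and their windows are printed with the Pcx window to show which short motifs they share. Each is given 5′ to 3′ on the plus strand of GRCm38.p6 and ends at the base before the start. Capitals mark GTTAAT, part of the site of the liver factor HNF1, and CACGTG, the E-box bound by carbohydrate response and other basic helix-loop-helix factors.
Gckr, chr5:31297313-31297562: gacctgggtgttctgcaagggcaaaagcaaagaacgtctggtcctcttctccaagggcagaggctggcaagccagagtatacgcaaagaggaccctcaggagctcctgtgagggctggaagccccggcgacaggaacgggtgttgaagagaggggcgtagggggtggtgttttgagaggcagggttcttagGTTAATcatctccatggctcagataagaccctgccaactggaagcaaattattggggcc
Khk, chr5:30921309-30921558: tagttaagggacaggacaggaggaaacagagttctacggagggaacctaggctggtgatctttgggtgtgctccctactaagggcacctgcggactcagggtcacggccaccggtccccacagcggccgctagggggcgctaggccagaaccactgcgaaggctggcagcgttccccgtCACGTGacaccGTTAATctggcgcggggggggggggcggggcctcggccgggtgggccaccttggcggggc
Pcx, chr19:4510222-4510471: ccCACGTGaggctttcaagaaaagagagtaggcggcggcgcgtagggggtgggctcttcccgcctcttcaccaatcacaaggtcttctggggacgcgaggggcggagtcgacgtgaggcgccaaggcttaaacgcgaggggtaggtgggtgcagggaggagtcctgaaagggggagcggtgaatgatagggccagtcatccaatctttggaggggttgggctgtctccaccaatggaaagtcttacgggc
GTTAAT stands 59 to 54 bases before the start of Gckr and 60 to 55 bases before that of Khk. CACGTG stands 71 to 66 bases before the start of Khk, where it overlaps a TGACG on the other strand, and begins 248 bases before that of Pcx. CCAAT was searched too and is not capitalised: on either strand it occurs once before Gckr, at 9 to 5 bases, and 3 times before Pcx, and 33.8% of all windows hold it. Neither GTTAAT nor CACGTG was found in the second Pcx window or in that of Gcgr. Over 32851 windows of the same length, searched on both strands, 6.43% hold GTTAAT, 6.02% hold CACGTG and 17.8% hold TGACG. These motifs were picked after the windows had been read, and a match describes letters, not binding.

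RNA of all 5 genes stood above the array median in the liver relative to the reference pool. The level is not the contrast on which they were chosen, but it is the mean of the same TN and HS values, so mice that were high under heat raise both. Without F203 and F241 the level of Gckr was 0.67. Their levels, as the mean of both groups, had a median of 0.95 against −0.03 over all features. With limma over 1856 features and Benjamini-Hochberg adjustment, 5 of 5 were called higher, where 24.1% of all features and 33.3% of the named genes were. The levels of different spots depend on each probe and on the reference pool, so they do not rank the genes.

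Gys2 had a level of 2.13 (SE 0.15, adjusted p = 1.22e-11, limma), 4.38-fold the array median, and was above the median on 34 of 34 arrays. Gcgr had 1.80 (SE 0.17, adjusted p = 3.88e-09), or 3.47-fold, and was above on 33 of 34. These ratios were high with either dye.

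Pc stood at 0.87 (SE 0.12, adjusted p = 1.57e-06, limma) and was above the median on 31 of 34 arrays, the exceptions all being Cy3 arrays (10 of 13 above). The levels of Gckr, 0.95 (SE 0.17, adjusted p = 5.03e-05), and Khk, 0.92 (SE 0.14, adjusted p = 3.41e-06), leaned on the dye. Each was above the median on 13 of 13 Cy3 arrays but on 14 of 21 Cy5 arrays. From the Cy5 arrays alone, which lack F203, Gckr had 0.23 (limma, adjusted p = 0.310) and Khk 0.38 (adjusted p = 0.0952), neither past the adjusted threshold. The Gckr value includes a reading of −4.09 in TN mouse F235, and a Cy5 fit without it was not run. The median Gckr reading was 0.24 on the Cy5 arrays and 1.31 on the Cy3 arrays.

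**Figure D1:**
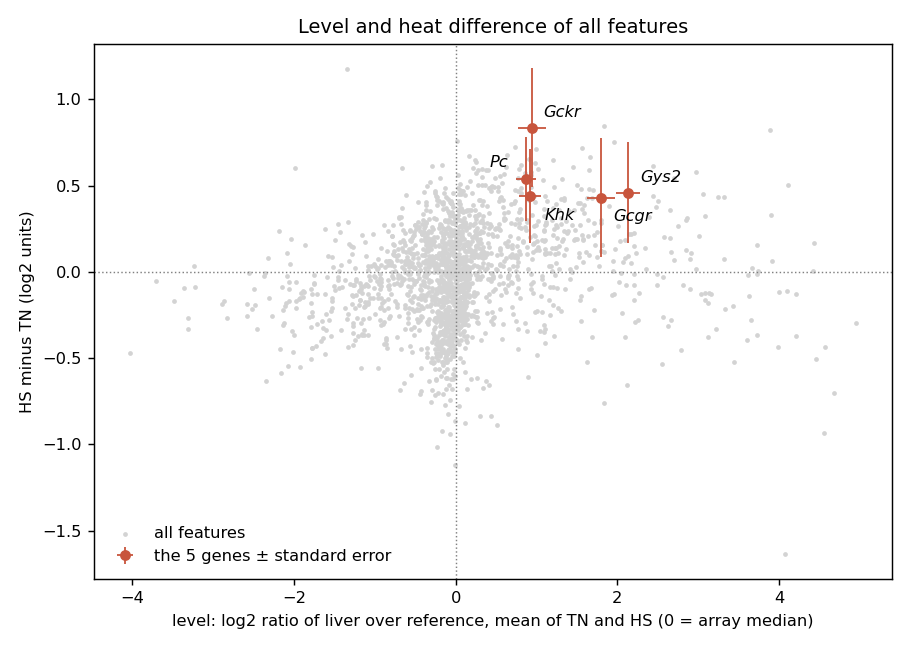
Liver level (mean of TN and HS, log2 ratio over the reference, 0 = array median) on the horizontal axis and HS minus TN difference (log2 units) on the vertical axis for all 1856 features in grey and the 5 genes in red, with bars of 1 standard error. All 5 lie right of 0 and above 0, Gckr highest at a difference of 0.84 and Gys2 farthest right at 2.13.

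The 5 genes had positive HS minus TN differences, 0.43 to 0.84, with a median of 0.46 against −0.01 over all features. Of the 1856 features, 48.3% had a positive difference, and 106 had one at least as large as the smallest of the 5. With limma, 0 features were called at an adjusted p under 0.05 in either direction, which is 0% of those tested. The lowest adjusted p was 0.999, and 45 features had an unadjusted p under 0.05. The TN and HS mice overlapped for each of the 5 genes.

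Gckr, the glucokinase regulatory protein, ran from −0.47 to 0.97 in the 7 TN mice with a median of 0.55, and from 0.36 to 2.59 in the 6 HS mice with a median of 1.08. F203 (2.59) and F241 (2.21) were far above every other mouse, M242 (1.21) came next, and the other HS mice lay inside the TN range, so that 3 of 6 HS mice exceeded the highest TN mouse. The means were 0.53 ± 0.49 (SD, n = 7) and 1.37 ± 0.85 (SD, n = 6), a difference of 0.84 (SE 0.34, 95% interval 0.12 to 1.55), or 1.79-fold. The difference was 0.43 on the Cy5 arrays and 0.995 on the Cy3 arrays, and 0.32 without F203 and F241. F203 has no Cy5 array, so for this gene and those below the Cy5 values rest on 12 mice and the Cy3 values on 13. The Cy3 values also include the broad array of F241. Dye and choice of mice cannot be told apart in these comparisons. F235, the lowest TN mouse, owed its value to 1 array: its Cy5 arrays read −4.09 and 1.51 and its Cy3 array 0.63. Without the first of these the difference was 0.64.

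Khk, which commits fructose to hepatic metabolism, ran from 0.19 to 1.60 in TN mice with a median of 0.62, and from 0.65 to 1.68 in HS mice with a median of 1.16. TN mouse M211 (1.60) stood apart from the other TN mice, none of which exceeded 0.69, and 1 of 6 HS mice lay above it although 5 of 6 lay above the TN mean. The means were 0.70 ± 0.43 (SD, n = 7) and 1.14 ± 0.39 (SD, n = 6), a difference of 0.44 (SE 0.27, 95% interval −0.13 to 1.00). It was 0.17 on the Cy5 arrays and 0.75 on the Cy3 arrays. F203 and F241 mattered less here, and without them it was 0.34.

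Gys2, which extends glycogen chains, ran from 1.53 to 2.50 in TN mice with a median of 1.78, and from 1.68 to 3.07 in HS mice with a median of 2.32. F241 (3.07), F203 (3.07) and M256 (2.68) exceeded the highest TN mouse, while M242, M233 and F222 lay between 1.68 and 1.96, among the TN mice. The means were 1.90 ± 0.32 (SD, n = 7) and 2.36 ± 0.66 (SD, n = 6), a difference of 0.46 (SE 0.29, 95% interval −0.15 to 1.07). It was 0.08 on the Cy5 arrays, 0.67 on the Cy3 arrays and 0.11 without F203 and F241.

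Pc, whose enzyme feeds pyruvate into gluconeogenesis and the citric acid cycle, ran from 0.32 to 1.10 in TN mice with a median of 0.63, and from 0.81 to 1.66 in HS mice with a median of 1.07. All 6 HS mice lay above the TN mean, and the lowest of them, F222, above every TN mouse except F235. The means were 0.60 ± 0.27 (SD, n = 7) and 1.14 ± 0.28 (SD, n = 6), a difference of 0.54 (SE 0.24, 95% interval 0.03 to 1.04), or 1.45-fold. The 2 dyes gave 0.49 (Cy5) and 0.54 (Cy3). The Cy3 value includes a reading of 3.09 in F241, against −0.67 to 1.43 in the other HS mice. A Cy3 fit without that reading was not run. F241 was again highest, at 1.66, from arrays that read 0.24 in Cy5 and 3.09 in Cy3. Without that Cy3 array the difference over both dyes was 0.28, and without both arrays that stood apart it was 0.26.

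Gcgr, the receptor through which glucagon acts on hepatocytes, ran from 1.01 to 2.31 in TN mice with a median of 1.34, and from 0.98 to 3.06 in HS mice with a median of 1.78. F203 (3.06) and F241 (2.98) were highest, yet the lowest of all 13 mice, M256 (0.98), was also an HS mouse. The means were 1.58 ± 0.50 (SD, n = 7) and 2.01 ± 0.85 (SD, n = 6), a difference of 0.43 (SE 0.35, 95% interval −0.29 to 1.14). It was 0.13 on the Cy5 arrays and 0.57 on the Cy3 arrays. The difference was 0.22 without F203, 0.24 without F241, and turned to −0.075 without both.

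**Figure D2:**
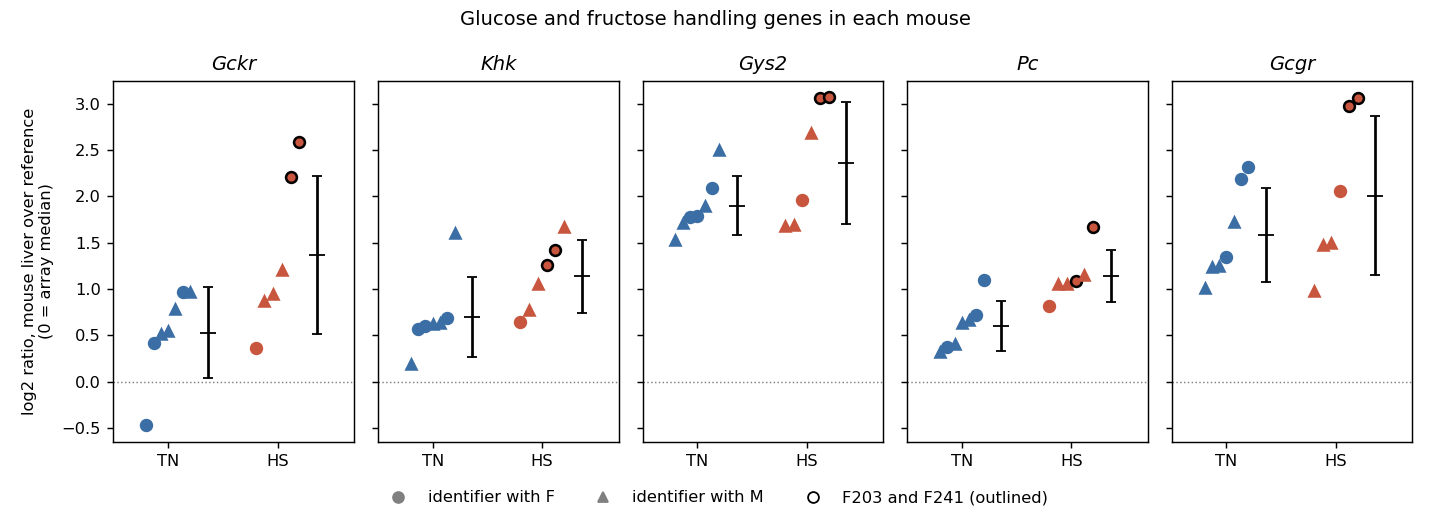
Log2 ratio of liver over reference (vertical axis, 0 = array median) for each of the 5 genes in 7 TN mice (blue) and 6 HS mice (red); circles are identifiers with F, triangles identifiers with M, and bars show mean ± SD. The outlined HS mice F203 and F241 are the highest for Gckr, Gys2 and Gcgr, and the groups overlap in every panel.

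Both mice that lead these values have few arrays. On its only array, in Cy3, F203 read 3.12 for Gckr, 1.75 for Khk, 3.24 for Gys2, 0.90 for Pc and 2.88 for Gcgr before the dye term. For F241 the Cy3 array read above the Cy5 array for each gene, 3.67 against 0.76 for Gckr, 2.59 against 0.26 for Khk, 4.35 against 1.79 for Gys2 and 3.21 against 2.75 for Gcgr. Without that Cy3 array the heat differences were 0.69 for Gckr, 0.33 for Khk, 0.28 for Gys2, 0.28 for Pc and 0.36 for Gcgr. The share of its broad spread in the readings themselves was not tested. Over all mice with more than 1 array, and after the dye term was removed, the median range between arrays of a mouse was 0.37 for Gckr, 0.69 for Gys2, 0.76 for Khk, 0.88 for Pc and 0.88 for Gcgr. Before its removal the median range was 1.22 for Khk, 1.10 for Pc, 1.06 for Gckr, 0.86 for Gcgr and 0.72 for Gys2. Gckr and Khk had the largest dye terms in size, −0.53 and −0.49, against 0.19 for Pc.

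**Figure D3:**
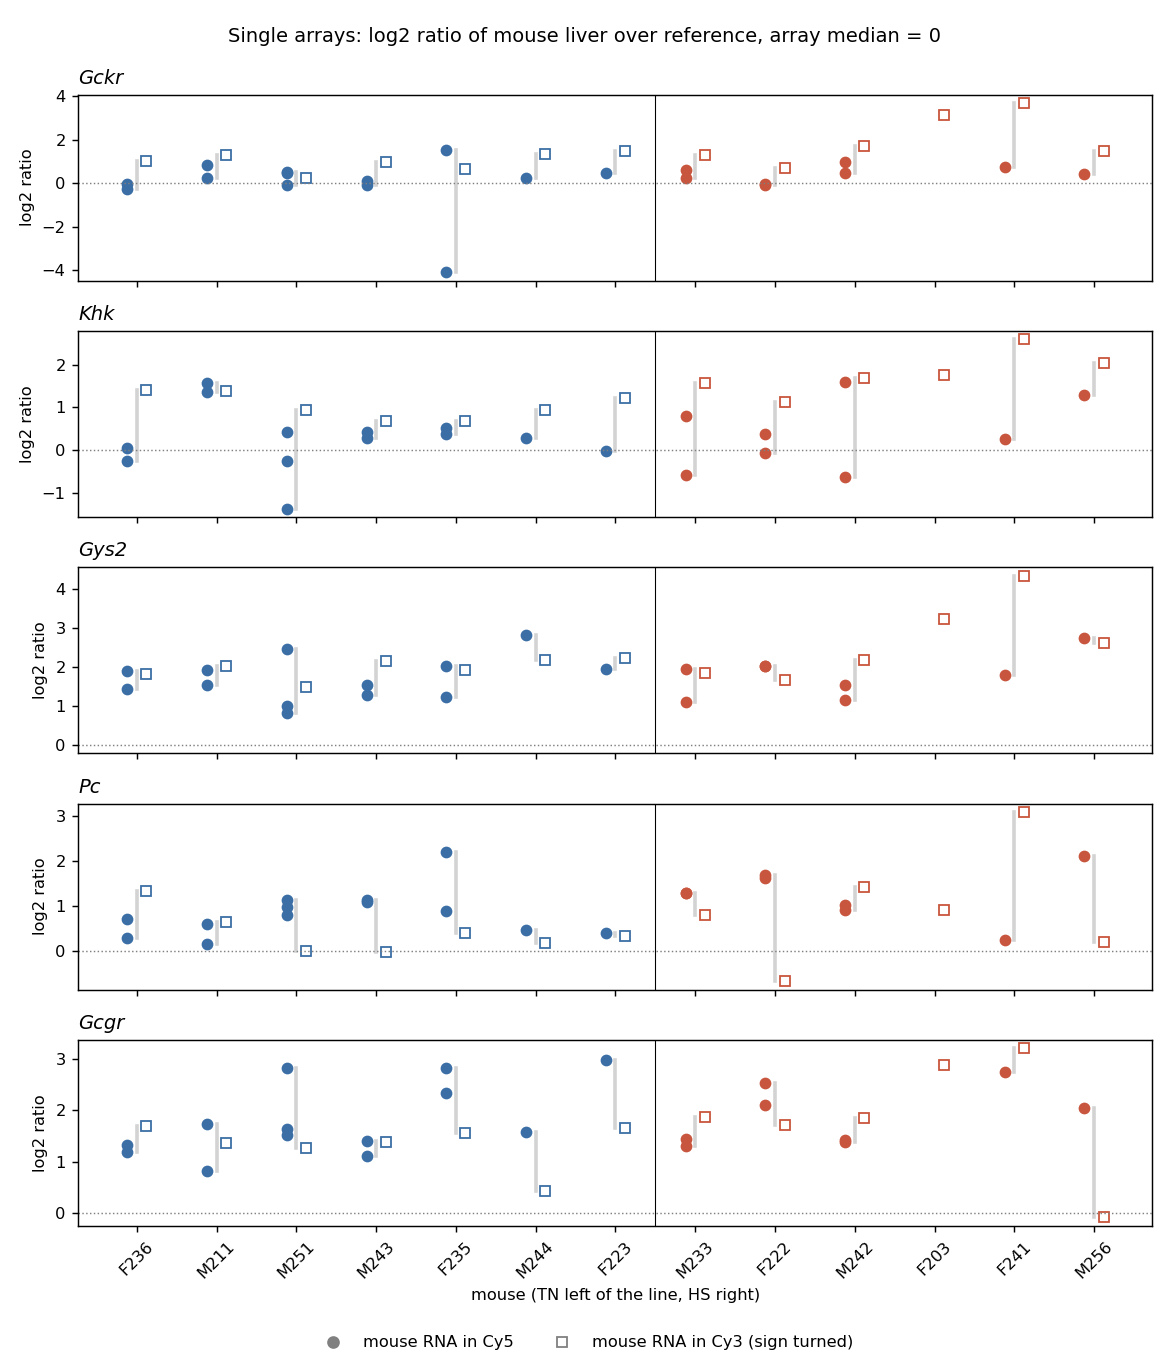
Log2 ratio of liver over reference on each of the 34 arrays (vertical axis, 0 = array median), by mouse, with TN left and HS right of the line; filled circles have mouse RNA in Cy5, open squares in Cy3 with the sign turned, and grey bars span the arrays of a mouse. One Gckr reading of F235 lies at −4.09, and the Cy3 array of F241 is the highest of all arrays for each of the 5 genes.

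With the letter of the identifier fitted beside heat, Gcgr was the gene of the 5 that differed most between F and M mice. It ran from 1.34 to 3.06 in the 6 F mice with a median of 2.25, and from 0.98 to 1.73 in the 7 M mice with a median of 1.25. All F mice but F236 (1.34) lay above the highest M mouse, M251. The means were 2.32 ± 0.64 (SD, n = 6) and 1.31 ± 0.27 (SD, n = 7), and the difference was 0.99 (SE 0.28, 95% interval 0.40 to 1.58), larger in size than that of 99.4% of features. It did not pass adjustment over all features (limma, unadjusted p = 0.00222, adjusted p = 0.855), and M242, which 1 label calls female, lay within the M range.

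The other F minus M differences were 0.30 for Gys2, 0.16 for Pc, 0.12 for Gckr and −0.10 for Khk, each smaller than its standard error of 0.25 to 0.35 except that of Gys2 (SE 0.30). Over all features 1 passed, Gstp1, a glutathione transferase, with a difference of −1.98 (adjusted p = 0.00316, limma), which is 0.0539% of those tested, and 70 had an unadjusted p under 0.05. The heat difference of Gckr was 1.42 among F mice and 0.31 among M mice, and that of Gcgr 0.75 and 0.01. The F and M heat differences were 0.81 and 0.11 for Gys2, 0.49 and 0.41 for Khk, and 0.46 and 0.58 for Pc. F203 and F241 are 2 of the 3 F mice under heat. No interaction of heat and letter passed (limma, 0 of 1856 features), and that of each of the 5 genes had an adjusted p of 0.998.

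After subtracting the group means, the 5 genes varied together only loosely across the 13 mice. Gckr and Gys2 were closest, with Pearson's r = 0.67 (permutation p = 0.0436, adjusted p = 0.427 over 10 pairs) and Spearman's rho = 0.65 (permutation p = 0.0424, adjusted p = 0.212). The r was 0.63 without F203 and F235, the mice farthest from the median of Gckr, and 0.39 without F203 and F241. Khk and Gys2 had r = 0.48 (permutation p = 0.0990, adjusted p = 0.427) and rho = 0.66 (permutation p = 0.0312, adjusted p = 0.212). Of the 10 pairs, 0 passed adjustment by either measure. Under the alternatives only Pearson's r was run, and by it 7 passed when array medians were not set to 0 and 2 on the Cy3 arrays alone. Array medians that are not set to 0, here −0.88 to 1.17, enter all 5 genes of an array alike. Their part in the 7 was not tested.

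Among the 1018 other named genes, the closest patterns over the same 13 mice belonged to different genes for each of the 5, and these are descriptions without a test. For Gckr they were Afdn (r = 0.86), Asgr1 (0.81), the asialoglycoprotein receptor subunit, and Abcb4 (0.79), the canalicular phospholipid transporter. For Khk they were Clcc1 (0.83), Ces1d (0.81) and Pxmp2 (0.81). Gys2 was most like Upb1 (0.79), Serpina3l (0.77) and Tm4sf4 (0.74), and Pc most like Mpst (0.82), Wnk1 (0.81) and F11r (0.76). Gcgr had the highest likeness, to Decr1 (0.90), an enzyme of unsaturated fatty acid oxidation, Nucb2 (0.87) and Hfe (0.86). All of these values share arrays and dye handling.

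Around the 5 genes, 32 other genes of sugar metabolism were measured out of 133 symbols listed. Their HS minus TN differences ran from −0.56 for Tpi1, triose phosphate isomerase, to 0.84 for Pklr, liver pyruvate kinase, with a median near 0 (0.003). Of the 32, 16 had a positive difference, close to the 48.3% of all features. By limma 0 of 32 were called and 0 had an unadjusted p under 0.05. For the level in the liver, limma called 10 of the 32 above the array median and 9 below it, at an adjusted p under 0.05. Of all named genes, 33.3% were called above. The share called below was not counted, so the 9 have no such background beside them.

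Beside Gckr, the glucose transporter Slc2a2 had a heat difference of 0.30 (SE 0.30), and glucokinase itself has no named spot. Beside Khk, Sord, which makes fructose from sorbitol, had 0.40 (SE 0.28). In glycogen metabolism Pygl, the phosphorylase that opposes Gys2, had 0.24 (SE 0.32) and Pgm1 −0.16 (SE 0.26).

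Downstream of Pc, the next gluconeogenic steps had differences of both signs. Pck1, which turns oxaloacetate into phosphoenolpyruvate, had −0.40 (SE 0.38, with means of 3.81 in TN and 3.41 in HS) and Fbp1 −0.31 (SE 0.25). The final steps, Slc37a4 and G6pc1, which move and split glucose 6-phosphate, had 0.37 (SE 0.26) and 0.24 (SE 0.28). Below Gcgr, Gnas, the stimulatory G protein subunit, had −0.13 (SE 0.27), and Prkar1a, a regulatory subunit of protein kinase A, 0.03 (SE 0.26).

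By list, positive differences were found for 2 of 10 genes of glycolysis and pyruvate use, 6 of 9 of gluconeogenesis, 2 of 4 of glycogen, 2 of 3 of fructose, polyol and galactose metabolism, the 1 pentose phosphate gene measured and 3 of 5 of glucose transport and hormone signalling.

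**Figure D4:**
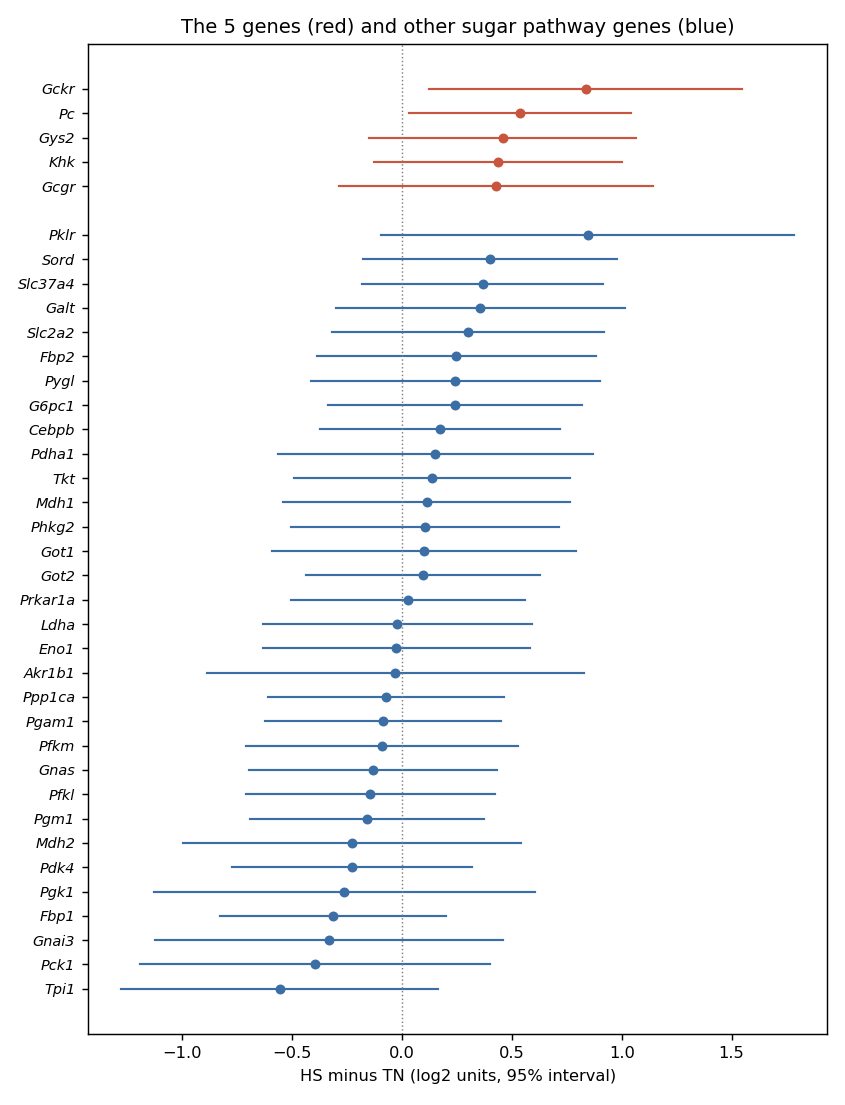
HS minus TN difference (horizontal axis, log2 units) with its 95% interval for the 5 genes (red) and the 32 other sugar metabolism genes measured (blue), each set ordered by its difference. The blue points run from −0.56 (Tpi1) to 0.84 (Pklr) on both sides of 0. The red points, which were chosen on this difference, run from 0.43 to 0.84, and their intervals are not adjusted for that choice.

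Across 27 other ways of processing the arrays, the heat difference kept a positive sign in 134 of 135 values for the 5 genes, a set that was chosen for that sign. Its size moved by more than 1.5 times in 20 of the 135. Among these were the Cy5 values of Gckr, Khk, Gys2 and Gcgr and the Cy3 value of Khk. So were the values of Gckr, Gys2 and Gcgr without both F203 and F241. Scaling all arrays to a common spread gave 0.61 for Gckr, 0.33 for Pc, 0.22 for Khk, 0.10 for Gcgr and 0.08 for Gys2. It changed every array, not the broad Cy3 array of F241 alone, without which Gcgr had 0.36 and Gys2 0.28. Besides the 2 arrays that stood apart, spreads ran from 0.62 to 1.22 in TN and from 0.77 to 1.38 in HS. The part of array spread in the heat differences was not tested.

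**Figure D5:**
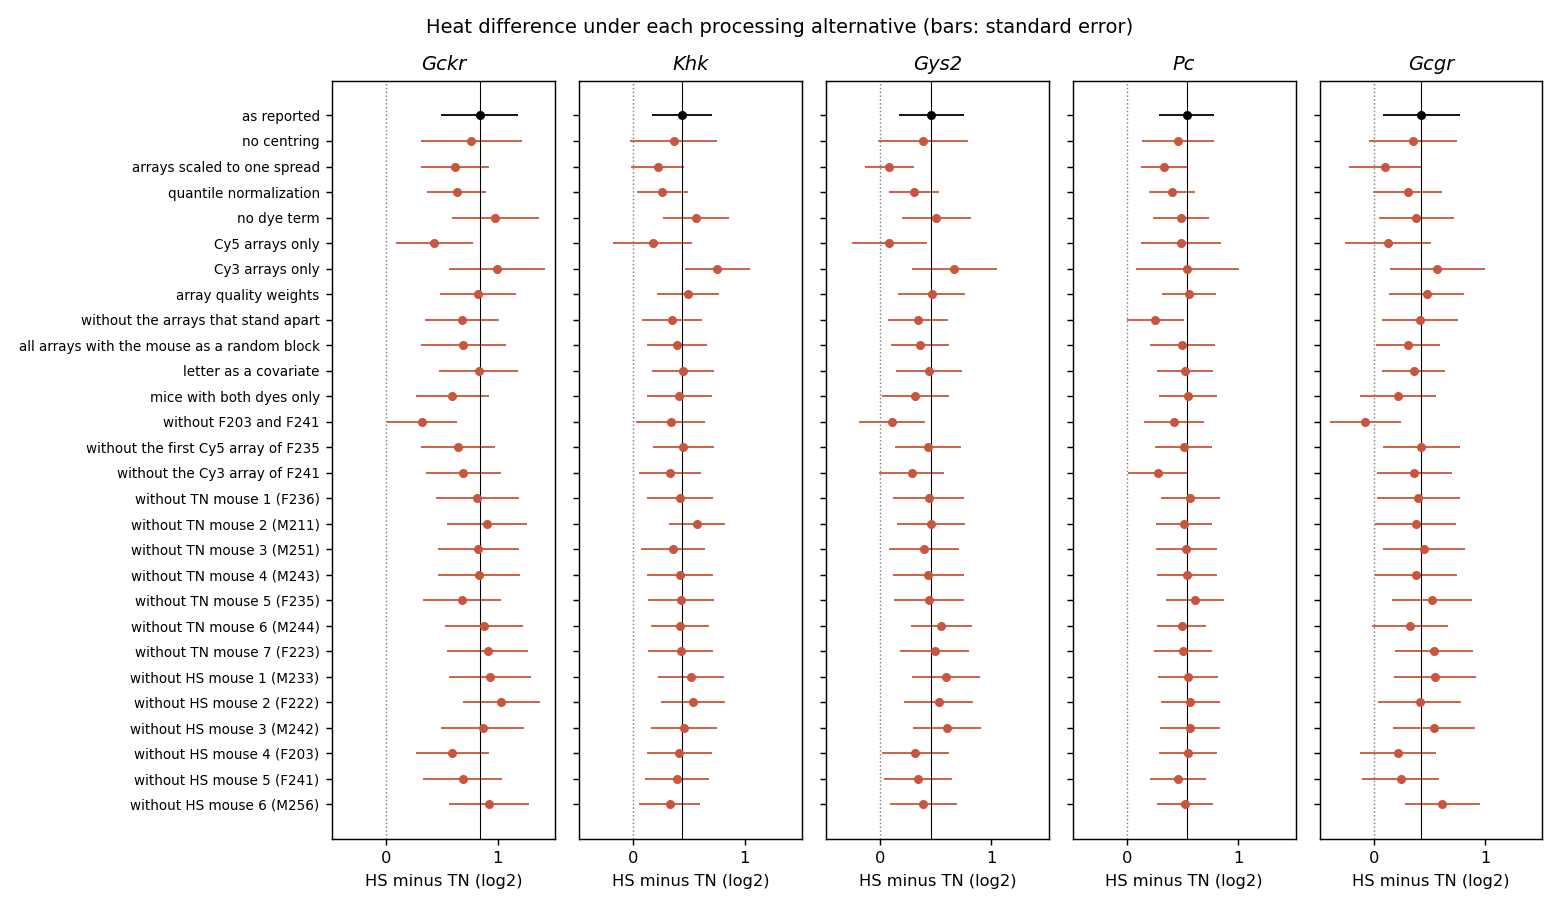
HS minus TN difference (horizontal axis, log2 units; bars are 1 standard error) of the 5 genes as reported (black) and under each of 27 processing alternatives (red), with the dotted line at 0. The points that fall lowest are those without F203 and F241 for Gckr (0.32) and Gcgr (−0.075), the Cy5 arrays for Khk (0.17) and Gys2 (0.08), and leaving out the arrays that stand apart for Pc (0.26).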

How the data were processed

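The authors deposited 1 log ratio per spot and array, taken here as log2, for 1920 spots on 34 arrays. Neither the labels nor the files used here state the log base, or how background, normalization and weak spots were handled. The values ran from −7.64 to 7.71, and natural logarithms could not be told apart from log2, in which case every difference here would be larger on the log2 scale. A two-colour array gives no read depth, and the number of mice limits precision. The platform annotation gave 1 symbol for 1083 spots and several for 7, and did not list 830. Spots of a gene were averaged, which left 1019 named genes and 837 unnamed spots.

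Ratios were turned to liver over reference by the labelled dye and centred on each array's median (−0.88 to 1.17 before). A mouse's value came from a least-squares fit per spot with a term for dye. For F203, with 1 array, this term rests on the other mice. HS minus TN, the level (the mean of both groups against 0), F minus M beside heat, and the interaction were fitted over all features with limma 3.58.1 in R 4.3.3, requiring 4 mice per group, with Benjamini-Hochberg adjustment at 0.05. Correlations between the 5 genes used group-centred mouse values, 100000 permutations and two-sided p-values. The limma p-values set an estimate against the spread between mice, each mouse counting alike whatever its number of arrays. The uncertainty of the dye term is not in them.

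The 5 genes, the pathway and marker lists and the tests were chosen with earlier results of these data known. The named genes are the 5, the genes of neighbouring steps, the 3 genes most like each, list extremes, and any count of 5 or fewer. Gstp1 was named after its values were seen. Alternatives changed the centring, scaling, dye handling, array weights, the mouse as a random block, and left out arrays or mice. The settings without F203 and F241, without the first Cy5 array of F235 and without the Cy3 array of F241 were chosen after seeing the data. The scripts were tested on simulated data. Promoter windows came from RefSeq (GRCm38.p6).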

Additional observations from a re-analysis of the deposited data

Results flagged for a closer look

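Over 15 named genes and 30 groups of mice, 3 groups held a mouse far from the others of its group, and chance alone would mark about 1 group in 20, or 1.5 of 30. For Gckr, TN mouse F235 was lowest at −0.47, with the nearest TN mouse at 0.41, a gap of 0.616 of the TN range. For Khk, TN mouse M211 was highest at 1.60, with the nearest at 0.69, a gap of 0.645 of the range. For Prkar1a, TN mouse M244 was lowest at −1.42, with the nearest at −0.58, a gap of 0.789 of the range. M244 has the array with the broadest spread (2.46).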

How the results depend on the processing

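The count of features called for heat stayed at 0 under all 27 alternatives, and the count called above the array median ran from 381 to 483. Leaving out 1 mouse at a time gave heat differences of 0.59 to 1.03 for Gckr, 0.33 to 0.58 for Khk, 0.32 to 0.60 for Gys2, 0.46 to 0.61 for Pc and 0.22 to 0.62 for Gcgr. The heat difference of Pc was 0.26 without the arrays that stand apart, and that of Gcgr −0.075 without F203 and F241. On the Cy5 arrays the levels of Gckr (0.23) and Khk (0.38) lost their call, and 0 features differed by letter. Leaving out 1 mouse gave 1 to 2 features by letter and 0 to 1 with an interaction, and scaling to one spread gave 1 interaction. Pairs correlated by Pearson's r numbered 7 without centring and 2 on Cy3 arrays.

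The F minus M difference of Gckr turned negative at −0.026 without centring, −0.018 scaled to one spread, −0.11 after quantile normalization, −0.41 on Cy5 arrays, −0.028 without the arrays that stand apart, −0.070 with the mouse as a random block, −0.12 over mice with both dyes, −0.47 without F203 and F241, −0.018 without the Cy3 array of F241, and ran from −0.12 to 0.38 when 1 mouse was left out. That of Khk was 0.020 without a dye term, 0.085 on Cy3 arrays and −0.19 to 0.030 when 1 mouse was left out. That of Gys2 was −0.043 on Cy5 arrays and −0.032 without F203 and F241. That of Pc was −0.16 on Cy5 arrays, −0.098 without the arrays that stand apart and −0.076 without the Cy3 array of F241. The cause of these changes was not tested. The F minus M difference of Gcgr kept its sign, from 0.67 to 1.19, with an adjusted p of 0.312 or more. Taking each spot on its own was not run, since each of the 5 genes has 1 spot and its values would be the same. No paired analysis was possible because the replicate numbers in the labels count hybridisations of 1 mouse.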
